A study of Mus musculus with 21 samples.

Results

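Transfer RNAs (tRNAs) carry amino acids to the ribosome, and an isoacceptor is the group of tRNAs that share an amino acid and an anticodon. The isoacceptors described here are PheGAA, which reads phenylalanine codons with the anticodon GAA, and TrpCCA, which reads the tryptophan codon with the anticodon CCA. In mouse back skin without the RNA methyltransferase NSun2, the 5′ fragments of these isoacceptors differed from wild-type (WT) skin in opposite directions: TrpCCA fragments were 2.33-fold higher and PheGAA fragments 1.49-fold lower. The TrpCCA direction held under every way of counting tried, the PheGAA direction did not. The pair was chosen for this difference, so its values in the tRNA sequencing (tRNA-seq) libraries are given as a description and without a test. Members were taken by name, as every predicted tRNA gene whose name ends in PheGAA or TrpCCA. This gave 17 of 3283 predicted genes, 9 for PheGAA and 8 for TrpCCA.

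NSun2 places methyl groups on cytosines of tRNAs, mainly where the variable loop meets the TΨC arm (positions 48 to 50 of the standard tRNA numbering). Ribonucleases such as angiogenin can cut a tRNA in the anticodon loop, which leaves a 5′ fragment and a 3′ fragment, and the study asked whether tRNAs without these methyl groups are cut more often. The CCA at the 3′ end of a mature tRNA is added after transcription and carries the amino acid.

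The mice were males at postnatal day 25, when the hair follicles enter their growth phase, on a C57Bl6/J CBA F1 background, and they had received no treatment. NSun2 -/- mice carried a gene trap in an intron of Nsun2 (clone D014D11) in all tissues, and WT mice came from the same breedings. All material was total back skin. RNA was measured with tRNA-seq (4 WT and 4 NSun2 -/- libraries) and with RNA bisulphite sequencing (4 and 4 libraries), and chromatin with RNA polymerase III (Pol III) ChIP-seq against the subunit POLR3A (2 WT libraries, 1 NSun2 -/- library and 1 input library of each genotype, each from 3 pooled mice). In bulk tissue, fewer cells of a type and less RNA per cell cannot be told apart.

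The tRNA-seq libraries held between 17352126 and 36749727 listed counts. In the bisulphite libraries, transcripts of Nsun2 had between 23 and 48 listed cytosines in WT skin and 0 in each of the 4 NSun2 -/- libraries. This checks the genotype labels of the bisulphite libraries only, and not those of the tRNA-seq or Pol III libraries. Markers of epidermis, dermis, skeletal muscle and adipose tissue, 12 genes in all, had listed cytosines in all 8 libraries. Of these markers, Acta1 of skeletal muscle and Fabp4 of adipose tissue were listed at more cytosines in every NSun2 -/- library than in any WT library. The summed muscle list (3 markers) ranged from 790 to 1403 cytosines in WT and from 1389 to 1874 in NSun2 -/- skin, and the summed adipose list (2 markers) from 97 to 131 and from 124 to 233. The number of cytosines that a library lists differed as well, and its part in these marker numbers was not tested. The libraries listed 156018 to 196679 cytosines in WT, 110324 in NSun2 -/- library 2 and 385574 to 665049 in the other NSun2 -/- libraries. Of 2751 protein-coding genes with a mean of at least 20 listed exon cytosines, 145 (5.27%) had more and 11 (0.4%) fewer of them in every NSun2 -/- library than in any WT library. The part of muscle and fat in the tRNA values was not tested.

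Gene sequences show what separates the isoacceptors. The gene of each with the most Pol III reads in WT skin is printed here from the mm9 assembly (NCBIM37), 5′ to 3′ on the strand of the gene, with the anticodon in capitals. The gene chr13.trna60-PheGAA lies at chr13:21253274-21253346 on the plus strand, and chr11.trna1880-TrpCCA at chr11:61221418-61221489 on the minus strand. Neither overlaps an annotated gene other than the tRNA, and the nearest protein-coding genes are Trim27, at 17968 bp, and Slc47a1, at 29571 bp.
chr13.trna60-PheGAA: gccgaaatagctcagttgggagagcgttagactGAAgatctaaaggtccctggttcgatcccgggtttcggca
chr11.trna1880-TrpCCA: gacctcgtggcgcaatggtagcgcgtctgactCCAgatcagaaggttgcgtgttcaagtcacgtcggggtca

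Coordinates were at hand for 12 of the 17 genes, 6 for each isoacceptor. The 6 PheGAA genes were 73 nt long and had only 2 distinct sequences: 5 genes were identical, and chr13.trna988-PheGAA carried G57A, counted from 1 at the first nucleotide of the gene. The 6 TrpCCA genes were 72 nt long and had 4 distinct sequences. Against chr11.trna1880-TrpCCA, the genes chr13.trna107-TrpCCA and chr13.trna109-TrpCCA carried T16C and G58A, chr11.trna398-TrpCCA and chr11.trna1820-TrpCCA also carried A2G, and chr10.trna857-TrpCCA carried T16C, T46C, A56G and G58A. Because TrpCCA genes lack 1 nucleotide of the D loop, their nucleotides from 17 on have a standard position higher by 1. At the sites where NSun2 acts, PheGAA genes have a cytosine at positions 48, 49 and 50, whereas TrpCCA genes have T at 48, G at 49 and a cytosine at 50.

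The 5′ fragments, defined as reads with a length of 25 to 40 nt whose first base is nucleotide 1 of a gene, are the reads on which the isoacceptors differed. Counts were scaled to the listed total of the library, as CPM (counts in each 1000000). The 3 most abundant fragment sequences of each isoacceptor by mean CPM over the 8 libraries are printed with position 26, a guanine in all 12 genes, in capitals, and a sequence without capitals lacks that nucleotide.
PheGAA 5′ fragment 1: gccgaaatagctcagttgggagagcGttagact
PheGAA 5′ fragment 2: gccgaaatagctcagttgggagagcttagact
PheGAA 5′ fragment 3: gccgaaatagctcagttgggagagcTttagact
TrpCCA 5′ fragment 1: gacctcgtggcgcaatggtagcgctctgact
TrpCCA 5′ fragment 2: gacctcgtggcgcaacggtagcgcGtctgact
TrpCCA 5′ fragment 3: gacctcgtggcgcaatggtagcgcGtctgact

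All 6 sequences end just before the anticodon. Over all 5′ fragments, 96.3% of the PheGAA counts and 98.9% of the TrpCCA counts ended at position 33, the nucleotide before the anticodon. The remaining PheGAA counts ended at position 32.

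PheGAA 5′ fragments came from 7 read sequences and were rare. They reached 9.81, 9.34, 7.58 and 10.4 CPM in WT libraries 1 to 4, and 5.94, 4.79, 5.16 and 7.75 CPM in NSun2 -/- libraries 1 to 4. Only NSun2 -/- library 4 lay above a WT library, library 3, and by less than the spread of either group. The means were 9.29 ± 1.22 CPM (SD, n = 4) in WT and 5.91 ± 1.32 CPM (SD, n = 4) in NSun2 -/- skin, and the fitted log2 fold change was -0.58 with a standard error of 0.30.

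TrpCCA 5′ fragments came from 29 read sequences and were more abundant than those of PheGAA in every library. They reached 79.4, 23.2, 38.6 and 46.7 CPM in WT libraries 1 to 4, and 92.7, 105.9, 82.8 and 133.6 CPM in NSun2 -/- libraries 1 to 4. All 4 NSun2 -/- libraries lay above all 4 WT libraries, with WT library 1 close to the lowest NSun2 -/- library. For TrpCCA, the means were 47 ± 23.7 CPM (SD, n = 4) in WT and 103.7 ± 22.0 CPM (SD, n = 4) in NSun2 -/- skin, and the log2 fold change was 1.22 with a standard error of 0.33. Of 42 isoacceptors fitted, 6 (14.3%) were higher in all 4 NSun2 -/- libraries than in all 4 WT libraries, and 3 (7.14%) were lower in all 4. TrpCCA was among the 6, from which nothing is read because the pair was chosen on this contrast.

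**Figure D1:**
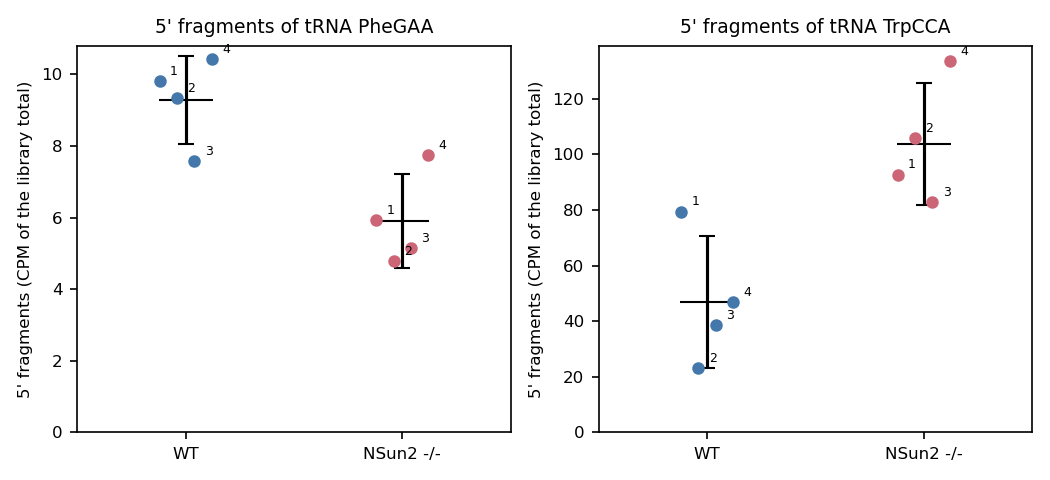
5′ fragments of tRNA PheGAA and tRNA TrpCCA in CPM of the listed library total (vertical axes, from 0) in 4 WT and 4 NSun2 -/- libraries, numbered by replicate, with the mean and SD of each genotype. NSun2 -/- points lie lower for PheGAA, where only library 4 at 7.75 CPM passes WT library 3, and higher for TrpCCA, where the groups do not overlap.

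The counts of PheGAA fragments were small once repeated listing was taken away. A read sequence was often listed at several genes, and its counts could differ between them. PheGAA 5′ fragment 1 had 66 counts over 3 genes in WT library 1, with 11 at the gene of its lowest total. Counts of a sequence also often shared an integer factor in all 8 libraries. This held for 48 of 74 PheGAA and 76 of 127 TrpCCA sequences with counts in at least 4 libraries. To count a sequence a single time, the gene with its lowest total was kept, and other choices were not tried. With each sequence counted a single time and divided by its factor, PheGAA fragments had 27, 26, 26 and 36 counts in WT libraries 1 to 4 and 20, 24, 15 and 17 in NSun2 -/- libraries 1 to 4. Scaled to library totals counted the same way, all 4 NSun2 -/- libraries lay below the WT libraries, by a margin of 13.5 against 13.7 CPM between the nearest. On this count 2 of 42 isoacceptors (4.76%) lay below and 7 (16.7%) above the WT libraries in all 4 NSun2 -/- libraries. The log2 fold change of PheGAA was -0.57 with the factor removed, but -0.12 with each sequence counted a single time and its factor kept. Scaled to library totals without trimmed-mean (TMM) normalisation, the latter was 0.21, so the direction of the PheGAA change rested on how the listed counts were read. TrpCCA fragments stayed between 0.87 and 1.65 on the log2 scale under every alternative tried.

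A ratio within each library does not depend on its scaling. TrpCCA had 8.10, 2.48, 5.10 and 4.48 counts of 5′ fragments per PheGAA count in WT libraries 1 to 4, and 15.6, 22.1, 16.1 and 17.2 in NSun2 -/- libraries 1 to 4. Every NSun2 -/- library lay above every WT library, and the mean log2 ratio was higher by 1.93 with a standard error of 0.37, or 3.80-fold. The pair was chosen for opposite changes of these same counts, so nothing is read from this separation. Ratios of other pairs of isoacceptors were not computed. The groups also stayed apart with each sequence counted a single time, at 3.54 to 14.0 in WT against 16.7 to 25.1 in NSun2 -/- skin, and with the factor removed, at 5.77 to 19.4 against 35.1 to 63.3. All 5′ fragments of the pair were 30 to 36 nt long, so a limit to these lengths left the ratios unchanged. The groups stayed apart as well for fragments without a mismatch and for fragments that start within the first 3 nucleotides. Over all reads of the isoacceptors the same ratio overlapped, at 1.29, 1.65, 1.15 and 2.27 in WT and 1.95, 1.90, 1.95 and 1.39 in NSun2 -/- skin.

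**Figure D2:**
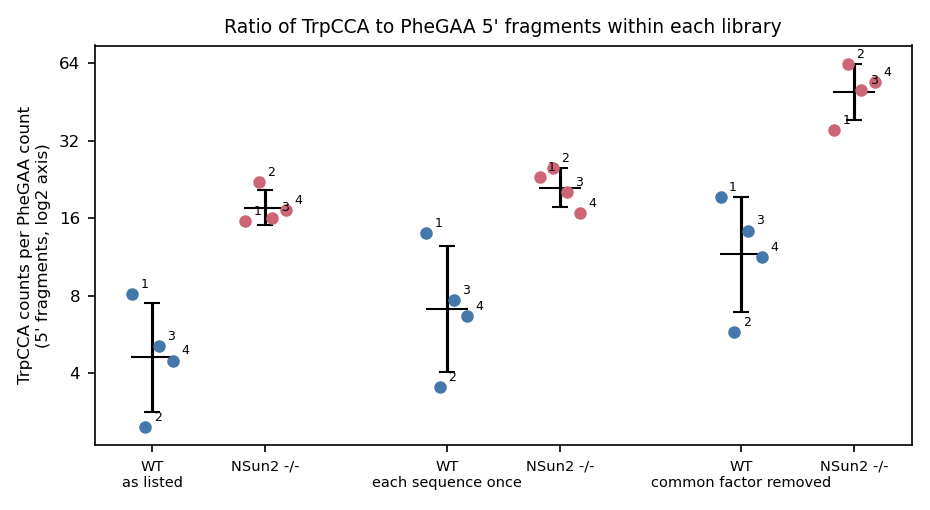
Counts of TrpCCA 5′ fragments per count of PheGAA 5′ fragments within each library (vertical axis, log2 scale) under 3 ways of counting, for 4 WT and 4 NSun2 -/- libraries, numbered by replicate, with the mean and SD of the log2 ratio. The NSun2 -/- points lie above the WT points under all 3, from 15.6 to 22.1 against 2.48 to 8.10 for counts as listed.

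Single sequences showed where the difference sat. PheGAA fragment 1, which matches the gene at every nucleotide, had 3.68, 4.50, 3.96 and 4.82 CPM in WT libraries 1 to 4 and 3.32, 1.63, 2.28 and 1.37 CPM in NSun2 -/- libraries 1 to 4. On these listed counts it was lower in all 4 NSun2 -/- libraries. Counted a single time, it had 11, 13, 16 and 18 counts in WT and 11, 10, 9 and 4 in NSun2 -/- skin. WT and NSun2 -/- library 1 then had equal counts, over totals of 1972410 and 1501726 with the factor removed, so the groups overlapped. Fragment 2, which lacks position 26, had 2.01, 2.07, 2.22 and 2.41 CPM in WT and 0.906, 1.96, 2.28 and 4.10 CPM in NSun2 -/- skin, and the groups overlapped. With its factor of 18 removed, fragment 2 rested on 1 to 4 counts a library. Fragment 3, with T at position 26, had 0.692 to 3.01 CPM in WT and 0.254 to 0.683 CPM in NSun2 -/- skin, without overlap as listed but with the nearest libraries almost equal. Counted a single time, fragment 3 rested on 9, 2, 3 and 6 counts in WT and 1, 2, 1 and 2 in NSun2 -/- skin. WT library 2 and NSun2 -/- library 4 then had equal counts, over totals of 1708567 and 1260459 with the factor removed, so the groups overlapped.

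All 3 TrpCCA 5′ fragments shown were more abundant in NSun2 -/- skin by their means. TrpCCA fragment 1, which comes from chr11.trna1880-TrpCCA and lacks position 26, had 15.8, 5.53, 5.60 and 6.60 CPM in WT libraries 1 to 4 and 13.9, 17.2, 14.2 and 21.9 CPM in NSun2 -/- libraries 1 to 4, where WT library 1 lay inside the NSun2 -/- range. Fragment 2, which matches chr10.trna857-TrpCCA, chr13.trna107-TrpCCA and chr13.trna109-TrpCCA at every nucleotide, had 4.50 to 9.86 CPM in WT and 12.2 to 21.9 CPM in NSun2 -/- skin. Fragment 3, which matches chr11.trna1880-TrpCCA, had 2.88 to 7.04 CPM in WT and 9.13 to 16.5 CPM in NSun2 -/- skin. Fragments 2 and 3 were higher in all 4 NSun2 -/- libraries. The single sequences of both isoacceptors are parts of the totals on which the pair was chosen, so nothing is read from their separation. How many sequences of other isoacceptors separate in this way was not computed.

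Sequence differences near the 5′ end told 3 types of TrpCCA fragment apart. Fragments of chr11.trna1880-TrpCCA (T at nucleotide 16) had 40.2, 13.9, 20.5 and 24.0 CPM in WT and 45.5, 55.9, 45.6 and 76.9 CPM in NSun2 -/- skin, without overlap. Those of chr10.trna857-TrpCCA, chr13.trna107-TrpCCA and chr13.trna109-TrpCCA had 33.9, 8.41, 14.7 and 19.9 CPM in WT and 39.3, 38.3, 33.6 and 49.4 CPM in NSun2 -/- skin, where NSun2 -/- library 3 lay just below WT library 1. Those of chr11.trna398-TrpCCA and chr11.trna1820-TrpCCA were rare, with 0.807 to 5.24 CPM in WT and 3.63 to 11.7 CPM in NSun2 -/- skin. With each sequence counted a single time, the type of chr10.trna857-TrpCCA no longer overlapped, at 18.6 to 89.4 CPM in WT against 125.3 to 204.0 CPM in NSun2 -/- skin. The rare type still overlapped on that count. With the factor removed as well, none of the 3 types overlapped. On listed counts, the log2 ratios of the means were 1.18, 1.06 and 1.30 for the 3 types. Their shares of all TrpCCA 5′ fragments were alike in the genotypes, at 53.8%, 39.9% and 6.29% in WT and 53.6%, 39.0% and 7.34% in NSun2 -/- skin. These shares are of listed counts, which repeat a sequence at several genes. With each sequence counted a single time, they were 72.5%, 22.5% and 4.99% in WT and 72.2%, 22.6% and 5.27% in NSun2 -/- skin.

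PheGAA fragments could not be divided in this way, because the 6 genes with a sequence are identical over the first 33 nucleotides. The table nevertheless listed PheGAA 5′ fragments at only 3 genes, chr13.trna60-PheGAA, chr13.trna988-PheGAA and chr19.trna106-PheGAA. Which of the genes a fragment came from is therefore uncertain.

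Among the 42 isoacceptors with 5′ fragments, log2 fold changes ranged from -0.85 to 1.41 with a median of 0.03, and 21 lay on either side of 0. TrpCCA was the third highest and PheGAA the 10th lowest. By the root mean square difference of log2 CPM across the 8 libraries, each isoacceptor centred on its own mean, the patterns most like PheGAA were GlnCTG (0.183), ArgTCT (0.206) and LeuAAG (0.219), whose log2 fold changes were -0.34, -0.34 and -0.71. The patterns most like TrpCCA were HisGTG (0.472), MetCAT (0.531) and ValTAC (0.549), with log2 fold changes of 1.11, 0.92 and 0.66. Of the 41 other isoacceptors, TrpCCA was the least like PheGAA, at a difference of 1.01, whereas PheGAA was 26th from TrpCCA.

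Isoacceptors were also grouped by the cytosines that most of their genes have at positions 48 and 49. For 2 isoacceptors, both with log2 fold changes above 0, this was not determined. PheGAA belongs to 35 with a cytosine at either position, of which 15 lay above 0 and 20 below, with a median log2 fold change of -0.13. TrpCCA belongs to 5 without one at both positions, of which 4 lay above 0, with a median of 1.05. The others of these 5 were ArgCCG at 1.05, ArgTCG at 0.53, AsnGTT at 1.20 and ArgTCT at -0.34. Without the chosen pair, the medians were -0.07 over 34 and 0.79 over 4 isoacceptors, against 0.03 over all 42. The isotypes Asp, Glu, Gly, His, Lys and Val, which the study named from these same samples and which are no independent evidence, had 12 isoacceptors with 6 above 0, 6 below and a median of 0.12, and the 1 Cys isoacceptor lay at -0.01.

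The remaining reads show which other pieces of each tRNA were sequenced. No read covered 90% or more of a PheGAA or TrpCCA gene, so that mature tRNA was not seen for either isoacceptor. With the common factor removed, 0 counts allow at most 2.38 CPM in the shallowest library. This limit covers counting error only, and none is given for listed counts, which are not independent reads. PheGAA was represented mainly by long 3′ reads that begin between positions 20 and 33, run through the anticodon and end in CCA. TrpCCA was represented mainly by short 3′ reads that begin at position 47 or later, at a mean of 48.4% of its counts in WT and 34.5% in NSun2 -/- skin. Most of the rest were 3′ reads that begin between positions 34 and 41, at 15.6% with and 10.6% without CCA in WT and 8.40% and 15.6% in NSun2 -/- skin, and 5′ fragments, at 14.7% and 30.7%. The most abundant read of each isoacceptor, and the most abundant TrpCCA 3′ fragment of 25 to 40 nt with CCA, are printed with position 58 in capitals where they cover it.
PheGAA most abundant read: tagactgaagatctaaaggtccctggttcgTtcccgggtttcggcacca
TrpCCA most abundant read: atcacgtcggggtcacca
TrpCCA most abundant 3′ fragment with CCA: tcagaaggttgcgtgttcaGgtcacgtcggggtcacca

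The long PheGAA reads started at position 28 in 78.7% of their counts, at 29 in 12.9% and at 27 in 5.09%. They made up 56.6 ± 12.3% (SD, n = 4) of PheGAA counts in WT libraries and 55.7 ± 17.4% (SD, n = 4) in NSun2 -/- libraries. The most abundant of them, printed above, had 73.8, 47.5, 59.7 and 15.6 CPM in WT and 62.9, 25.2, 51.8 and 81.2 CPM in NSun2 -/- skin, and the groups overlapped. Long reads of this kind made up only 0.194 ± 0.155% (SD, n = 4) of TrpCCA counts in WT libraries and 0.145 ± 0.116% (SD, n = 4) in NSun2 -/- libraries.

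Short 3′ reads made up 48.4 ± 9.57% (SD, n = 4) of TrpCCA counts in WT libraries and 34.5 ± 12.0% (SD, n = 4) in NSun2 -/- libraries. The most abundant TrpCCA read, 18 nt from position 59 to CCA, had 204.0, 155.6, 71.7 and 85.6 CPM in WT and 166.1, 46.3, 82.8 and 78.6 CPM in NSun2 -/- skin, with overlap. The share of 5′ fragments among TrpCCA counts was 17.8%, 6.49%, 17.4% and 17% in WT and 20.7%, 37.4%, 25.8% and 38.7% in NSun2 -/- skin, with all 4 NSun2 -/- libraries above all WT libraries. For PheGAA that share was 4.92 ± 2.55% (SD, n = 4) in WT libraries and 3.02 ± 0.289% (SD, n = 4) in NSun2 -/- libraries, with overlap. Shares of 5′ or 3′ fragments among the counts of an isoacceptor were not computed outside the pair, so how many others separate in this way is not known.

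**Figure D3:**
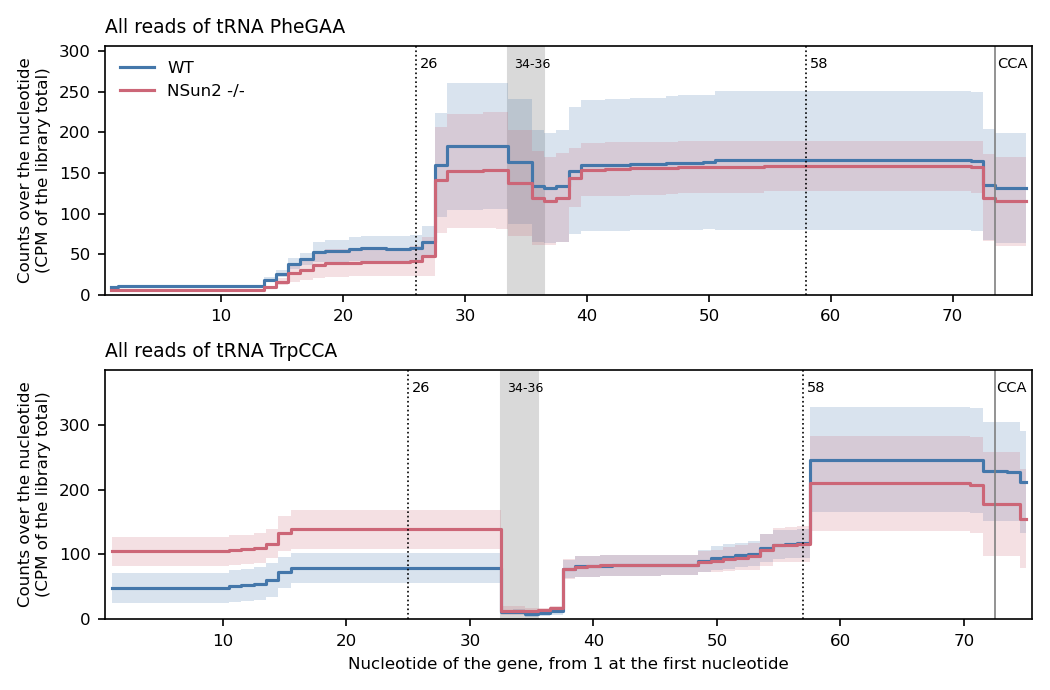
Mean CPM of reads over each nucleotide of the PheGAA gene (top) and the TrpCCA gene (bottom), counted from 1 at the first nucleotide and on into CCA, for WT and NSun2 -/- skin (n = 4 each), with bands of 1 SD on either side, the anticodon (positions 34 to 36) shaded and positions 26 and 58 dotted. Over the first 32 nucleotides the NSun2 -/- line lies above the WT line for TrpCCA only, and PheGAA coverage rises at nucleotide 28 where its long 3′ reads start.

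Reads that began within or just after the anticodon, between positions 34 and 41, were also present. Whether such a start is a cut in the tRNA or the place where reverse transcription ended was not tested. These reads started at position 39 in 65.1% of PheGAA and 79.0% of TrpCCA counts, so most of them did not meet the 5′ fragments, which end at position 33, and left out positions 34 to 38. Without CCA, such PheGAA reads had 56.6, 10.1, 16.9 and 29.1 CPM in WT and 29.1, 76.0, 29.9 and 20.6 CPM in NSun2 -/- skin. NSun2 -/- library 2 stood apart from the other NSun2 -/- libraries, and the genotypes overlapped. Without CCA, TrpCCA reads had 41.1, 25.5, 26.2 and 38.9 CPM in WT and 48.6, 67.5, 55.1 and 36 CPM in NSun2 -/- skin, with overlap through NSun2 -/- library 4.

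With CCA, 3′ fragments of 25 to 40 nt were listed for TrpCCA only, and PheGAA had 0 counts in all 8 libraries. TrpCCA 3′ fragments had 57.8, 84.2, 39.1 and 57.2 CPM in WT and 49.2, 25.1, 39.8 and 26.3 CPM in NSun2 -/- skin, and the groups overlapped. In CPM, 18 of 38 isoacceptors (47.4%) were lower and 0 were higher in all 4 NSun2 -/- libraries, and TrpCCA was not among them. As a share of TrpCCA counts, its 3′ fragments were lower in all 4 NSun2 -/- libraries, at 7.63% to 12.4% against 12.9% to 23.6%. On library totals the log2 fold change of TrpCCA 3′ fragments was -0.76. TMM normalisation, which centred the 38 isoacceptors with such fragments near 0, gave 0.90 with a standard error of 0.27. The median of the 38 isoacceptors moved by -1.58 between these scalings, and TrpCCA was the fourth highest of them. Relative to other isoacceptors, TrpCCA 3′ fragments were thus higher, and relative to the library total they were lower.

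Over all reads, neither isoacceptor separated the genotypes. PheGAA had 347.6, 216.8, 193.8 and 121.0 CPM in WT and 229.3, 148.6, 164.8 and 247.3 CPM in NSun2 -/- skin, with a log2 fold change of 0.29 and a standard error of 0.29 that became -0.15 on library totals. TrpCCA had 447.0, 356.9, 222.1 and 274.5 CPM in WT and 447.6, 282.8, 320.6 and 344.8 CPM in NSun2 -/- skin, with a log2 fold change of 0.56 and a standard error of 0.21 that became 0.10 on library totals. Of 46 isoacceptors, 1 (2.17%) was higher and 14 (30.4%) were lower in all 4 NSun2 -/- libraries, and neither PheGAA nor TrpCCA was among them. With the common factor removed, TrpCCA was higher in all 4 NSun2 -/- libraries, at 1159 to 1491 CPM against 556.6 to 855.8 CPM in WT, whereas PheGAA still overlapped. On this count 5 of 46 isoacceptors (10.9%) were higher and 7 (15.2%) lower in all 4 NSun2 -/- libraries.

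Mismatches at 3 positions marked these reads. Mature tRNAs commonly carry a methylated guanosine at positions 9 and 26 and a methylated adenosine at position 58, and such bases can stop reverse transcriptase or make it insert another base. Whether the mismatches here come from such bases was not tested.

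Position 9 is an adenine in PheGAA and a guanine in TrpCCA. PheGAA fragments had 0 of 1308 counts with another base there. TrpCCA fragments had another base in 13.4%, 7.46%, 14.1% and 17.6% of counts in WT and 17.4%, 13.3%, 11.6% and 12.2% in NSun2 -/- skin, mostly T, and the groups overlapped.

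At position 26, 47.1% of PheGAA and 54.5% of TrpCCA 5′ fragment counts had another base or lacked the nucleotide. The PheGAA shares were 58%, 42.0%, 41.3% and 45.3% in WT and 27.1%, 47.7%, 49.2% and 64.7% in NSun2 -/- skin. The TrpCCA shares were 65.8%, 57.5%, 49.4% and 51.5% in WT and 44.9%, 52.6%, 61.8% and 55.2% in NSun2 -/- skin. The genotypes overlapped for both isoacceptors. Reads under 25 nt from the D arm, by contrast, carried T at position 26 in 100% of PheGAA and 98.1% of TrpCCA counts.

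Position 58 differed between the isoacceptors in the base that was read. In PheGAA 3′ reads, 79.7% of counts had T and 16.3% had G in place of the adenine, and 3.98% the base of the gene. TrpCCA 3′ reads had G in 69.1%, T in 3.57% and the base of the gene in 27.3% of counts. The share with any mismatch ranged from 92.9% to 98.0% over the 8 libraries for PheGAA. For TrpCCA it was 71.5%, 79.0%, 78.7% and 77.5% in WT and 72.9%, 62.9%, 74.0% and 70.7% in NSun2 -/- skin, lower by 6.56 percentage points on average with overlap, and lower by 0.97 with the common factor removed. The isoacceptors thus kept their own base patterns in both genotypes.

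**Figure D4:**
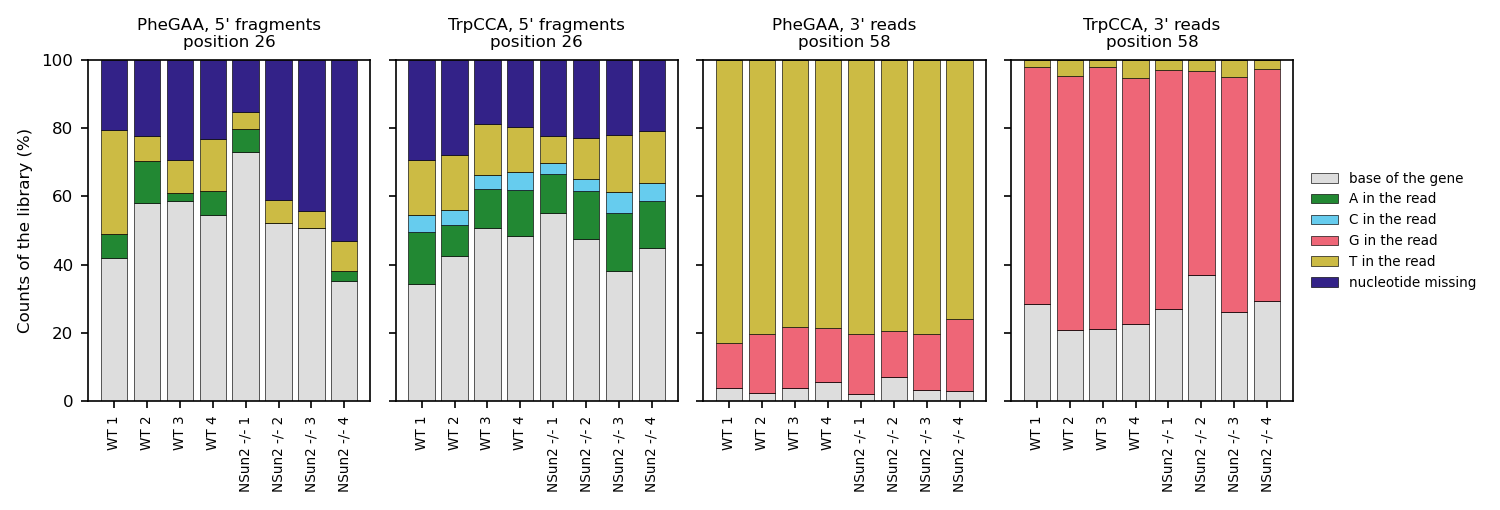
Share of counts (vertical axis, percent of the counts of a library) with the base of the gene, another base or a missing nucleotide at position 26 of 5′ fragments and at position 58 of 3′ reads, for PheGAA and TrpCCA in 4 WT and 4 NSun2 -/- libraries. At position 58 PheGAA reads carry mostly T and TrpCCA reads mostly G in all 8 libraries.

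Pol III ChIP-seq is independent of the tRNA-seq contrast and shows at which of the genes the polymerase was bound. Counts were scaled to the library total, as RPM (reads in each 1000000). Binding was called where each WT library held 10 or more reads and mean WT RPM was at least 2 times input RPM. A pseudocount was added to the reads before this ratio was taken. The RPM values of single genes are given without it. Of the 17 genes, 14 reached 10 reads in each WT library, 7 for each isoacceptor, and 9 were bound, 6 for PheGAA and 3 for TrpCCA. The single NSun2 -/- library has no replicate, so the genotypes were not compared by a test.

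Among bound PheGAA genes, chr13.trna60-PheGAA had 3743 and 5195 RPM in the WT libraries and 5173 RPM in the NSun2 -/- library, with 880 and 207 RPM in the WT and NSun2 -/- inputs. In the same order of libraries, chr5.trna1315-PheGAA had 3147, 3912 and 4016 RPM, and chr10.trna961-PheGAA, which lies 85 bp from Ndufs7, had 1546, 1980 and 1703 RPM. The NSun2 -/- library lay within or close to the WT range at these genes. The gene chr13.trna988-PheGAA had 2062, 1283 and 1167 RPM and was the one bound PheGAA gene below both WT libraries, with inputs of 440 and 621 RPM. The weaker genes chr19.trna106-PheGAA and chr19.trna108-PheGAA had 1058, 1109 and 1262 RPM and 407, 507 and 662 RPM. The gene chr14.trna457-PheGAA was not called bound, with 543, 1330 and 1409 RPM over a WT input of 503 RPM.

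Among TrpCCA genes, chr11.trna1880-TrpCCA was the strongest, with 2496 and 4799 RPM in WT and 4637 RPM in NSun2 -/- skin, and inputs of 942 and 483 RPM. The genes chr11.trna398-TrpCCA, with 1573, 2518 and 2797 RPM, and chr10.trna857-TrpCCA, with 977, 2027 and 1924 RPM, were also bound. WT library 1 was the lowest at all 3 of them. The genes chr11.trna1820-TrpCCA (326, 1220 and 1546 RPM), chr11.trna1849-TrpCCA (624, 570 and 515 RPM), chr13.trna107-TrpCCA (543, 602 and 536 RPM) and chr13.trna109-TrpCCA (407, 586 and 641 RPM) were not called bound. With the pseudocount, their WT means were 1.40, 0.895, 1.89 and 1.03 times the WT input, which held only 4 reads (251 RPM) at chr13.trna107-TrpCCA. In the same order of genes, the NSun2 -/- library held 3.22, 0.952, 1.13 and 1.57 times its own input. The remaining 3 genes, chr3.trna35-PheGAA, chr9.trna958-PheGAA and chr10.trna1282-TrpCCA, had at most 10 reads in any Pol III library.

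Summed over bound genes, the log2 ratio of NSun2 -/- to the mean WT RPM was 0.11 for PheGAA, beside 0.22 between the WT libraries, and 0.38 for TrpCCA, beside 0.88 between the WT libraries. Both genotype ratios were smaller than the difference between the WT libraries. Of all 220 bound genes, 113 (51.4%) lay above and 33 (15.0%) below both WT libraries in the NSun2 -/- library. Among bound members, 3 of 6 PheGAA and 1 of 3 TrpCCA genes lay above, and 1 PheGAA gene lay below. The TrpCCA to PheGAA ratio of Pol III counts over all 17 genes was 0.552 and 0.808 in the WT libraries and 0.822 in the NSun2 -/- library, and 1.44 and 1.45 in the WT and NSun2 -/- inputs. By this ratio, WT library 1 lay further from WT library 2 than the NSun2 -/- library did. The title of WT library 1 reads PolII while its antibody label names POLR3A, and it was used here as a Pol III library by the antibody label. Without it, the log2 ratio was -0.00077 for PheGAA and 0.0011 for TrpCCA genes.

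**Figure D5:**
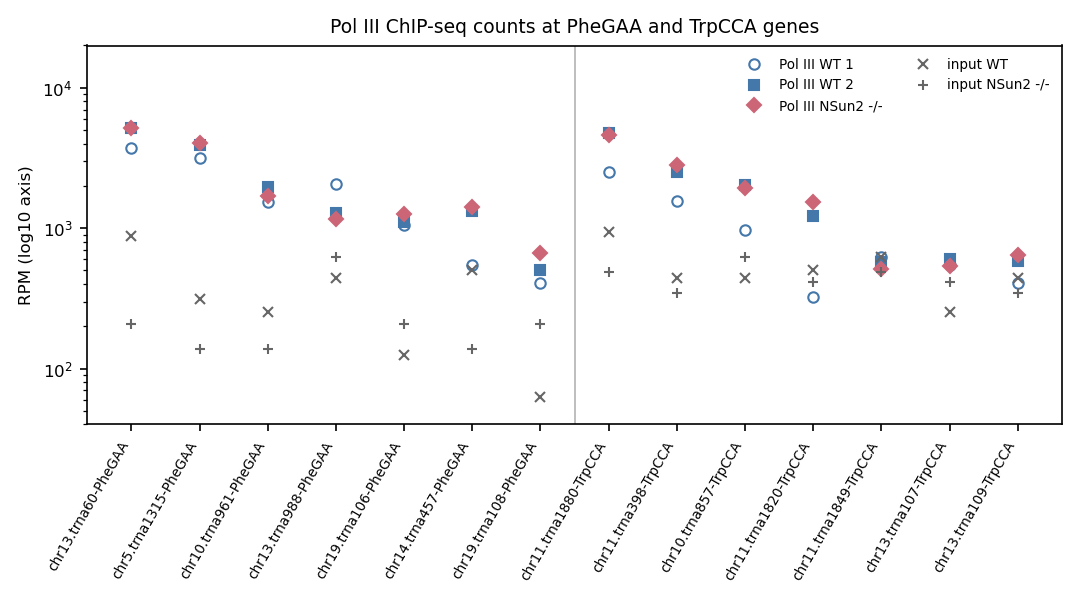
Pol III ChIP-seq counts at the 14 PheGAA and TrpCCA genes that reached 10 reads in each WT library (vertical axis, RPM of the library total, log10 scale) in 2 WT libraries, 1 NSun2 -/- library and 1 input library of each genotype. The NSun2 -/- diamonds lie near the WT library 2 squares at most genes, and WT library 1 lies below both of them at 11 of the 14.

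RNA bisulphite sequencing, in which methylated cytosines stay unconverted, had too few reads at these genes for a comparison. The 6 PheGAA genes with a sequence hold 96 cytosines and the 6 TrpCCA genes 114, and none was listed with at least 10 reads in any WT library. In NSun2 -/- library 4, chr5.trna1315-PheGAA had 7 listed cytosines covered by 10 or 11 reads. Positions 48, 49 and 50, where NSun2 acts, were unconverted in 70.0%, 45.5% and 45.5% of these reads, with exact 95% binomial intervals of 34.8% to 93.3% for position 48 and 16.7% to 76.6% for the other two.

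In NSun2 -/- library 1, chr10.trna857-TrpCCA had 2 listed cytosines, both unconverted in 60.0% of 10 reads, and chr11.trna1820-TrpCCA had 5, unconverted in 50% to 90% of 10 reads. All 14 cytosines were partly unconverted in mice without NSun2, including ones far from positions 48 to 50. The median cytosine in tRNA genes was unconverted in 34.6%, 42.9%, 2.38% and 23.8% of reads in NSun2 -/- libraries 1 to 4 and in 7.69% to 17.6% in WT, so that 3 of the 4 NSun2 -/- libraries were above every WT library over all tRNA genes and library 3 was below them. Since no WT library listed a cytosine of these genes, methylation could not be compared between the genotypes for either isoacceptor.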

How the data were processed

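The samples were back skin of both genotypes, measured with tRNA-seq, RNA bisulphite sequencing and Pol III ChIP-seq. For tRNA-seq, the authors removed adapters, aligned reads with Bowtie to mm9, tried unaligned reads again after trimming CCA, and deposited unscaled counts of each read sequence at each tRNA gene. These counts repeat a sequence at several genes, not always with the same count, and often carry an integer factor. They are therefore not numbers of independent reads, and no intervals were given for them. For Pol III ChIP-seq, the authors distributed multiply matching reads and deposited counts per predicted tRNA gene. For bisulphite sequencing, the authors deposited the percent of unconverted reads and the counts of unconverted and converted reads per cytosine, for cytosines with at least 10 reads. The submitters' processing notes name Bismark 0.7.6, Bowtie and DESeq.

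Counts were fitted in R 4.3.3 (edgeR 4.0.16, DESeq2 1.42.0) and handled in Python 3.11.15 (pysam 0.24.0, scipy 1.17.1, numpy 2.4.6, pandas 2.3.3). Gene coordinates came from the study's gene list, and the genes were read from mm9. Read sequences were placed on genes with at most 4 mismatches, and 0.128% to 0.168% of the counts of a library could not be placed. Counts were summed per isoacceptor over the whole table and fitted with edgeR's quasi-likelihood model (TMM, filterByExpr), tested on simulated data. No p-value is printed, because the pair was chosen on this contrast. A planned test of single cytosines asked for 10 or more reads in 3 or more libraries per genotype, which no member met. Pol III ratios used a pseudocount of 1. The labels describe the libraries of a genotype as separate biological replicates. All columns of samples were mapped to a sample (0 were not).

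The members and lists were chosen with earlier results of these data known. Named were all members with at least 10 Pol III reads in both WT libraries, and the 3 isoacceptors most like each member. Sequences shown were the strongest Pol III gene, the 3 most abundant 5′ fragments and the most abundant 3′ fragment with CCA of each isoacceptor. As mature reads were not found, the most abundant read of any kind was shown in their place, a choice made after the values were seen. Alternatives were library totals in place of TMM, DESeq2, no filter on low counts, other fragment lengths and starts, no mismatches, a replicate block and each library left out. The 2 other ways of counting were added after the data were seen.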

Additional observations from a re-analysis of the deposited data

Results flagged for a closer look

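Among PheGAA 3′ reads from positions 34 to 41 without CCA, NSun2 -/- library 2 stood apart from the other libraries of its genotype, at 76.0 CPM against 20.6 to 29.9 CPM, with a gap to its nearest neighbour of 0.832 of the group's range. Of 42 groups of 4 libraries tested in this way, this was the 1 that stood out, and chance alone gives about 1 in 20.

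Unconverted cytosines were listed for members in the bisulphite libraries of NSun2 -/- skin, which enter no comparison of the genotypes, since no WT library listed a value for these genes. The median share of unconverted reads was 60.0% over the 2 cytosines of chr10.trna857-TrpCCA and 80% over the 5 cytosines of chr11.trna1820-TrpCCA in NSun2 -/- library 1, and 60.0% over the 7 cytosines of chr5.trna1315-PheGAA in NSun2 -/- library 4. The cause was not tested.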

How the results depend on the processing

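TrpCCA 5′ fragments kept their direction and stayed within the spread between libraries under all 19 alternatives, with log2 fold changes of 0.87 to 1.43 when 1 library was left out, and so did the TrpCCA minus PheGAA difference of 1.80, at 1.59 to 2.16 without 1 library. Among these alternatives, the fit without the filter was identical to the main fit, and the limit of 30 to 36 nt kept the same reads of the pair. PheGAA 5′ fragments went from -0.58 to -0.12 with each sequence counted a single time and to 0.21 with library totals as well. Leaving out 1 library gave -0.95 (without NSun2 -/- library 4) to -0.48. On library totals, all reads of PheGAA went from 0.29 to -0.15 (0.06 to 0.59 without 1 library), all reads of TrpCCA from 0.56 to 0.10 (0.45 to 0.75 without 1 library), and TrpCCA 3′ fragments with CCA from 0.90 to -0.76 (0.67 to 1.09 without 1 library). TrpCCA 3′ fragments on library totals were -0.29 with each sequence counted a single time and -0.56 with the common factor removed. Without that factor, all reads of TrpCCA reached 1.03, and the position 58 difference of TrpCCA went from -6.56 to -0.97 percentage points. The Pol III log2 ratio of PheGAA genes went from 0.11 to -0.11 when scaled to the total over bound genes and to -0.00077 without WT library 1 (-0.00077 to 0.22 without 1 library), and that of TrpCCA genes stayed at 0.0011 to 0.89. The cause of these moves was not tested, except that the median of all isoacceptors moves with the scaling, by -0.44 for all reads and -1.58 for 3′ fragments. With the replicate number as a block, log2 fold changes were -0.60 for PheGAA and 1.33 for TrpCCA 5′ fragments. The numbers did not pair the libraries, since deviations of same-numbered libraries correlated at 0.27, -0.62, 0.24 and -0.54 and 1 of 4 WT libraries correlated best with its own number. Mature reads, PheGAA 3′ fragments with CCA and single cytosines gave no value. The counts of PheGAA 5′ fragments (15 to 36 a library with the factor removed), the 10 or 11 reads at bisulphite cytosines and the single NSun2 -/- Pol III library limit what can be seen.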
